A study of Mus musculus with 12 samples.

Results

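The comparison was between organoids of the mouse pancreatic tumour line mT69a that lack Spdef and carry an SPDEF over-expression vector and organoids of the same Spdef-knockout clone that carry an empty vector. It was chosen by sample title and covers 4 of the 12 libraries of the study, 2 with the SPDEF vector and 2 with the empty vector. The study grew 2 such lines, mT6 and mT69a, in 3 conditions with 2 libraries each. RNA was sequenced from stranded total RNA libraries. All groups were C57/Bl6 and shared 1 tumour genotype, which includes Trp53LSLR172H/LOH and Pdx1-Cre. Here Pdx1-Cre, active in the pancreatic epithelium, switches on the mutant Trp53 allele, and the organoids, cultured in Matrigel domes, hold tumour epithelium without its stroma. Both compared groups share the Spdef knock-out, and the knockout is the single clone KO1, so that traits of that clone are present on both sides of the comparison. The control of this line carries a Rosa26 knock-out and the empty vector, and the labels do not say whether it is a clone. Whether both libraries of a group came from separate cultures is not stated in the labels. The p-values rest on the spread within groups over all 12 libraries, fitted together, and this spread may be technical.

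The protein SPDEF belongs to the ETS transcription factors. In intestine, airway and stomach it is known for promoting the maturation of goblet and mucous cells, in which mucins are folded in the endoplasmic reticulum (ER), glycosylated in the Golgi and stored in secretory vesicles. Such cells rely on dedicated factors, among them the CREB3 family of membrane-bound transcription factors, the disulfide isomerase AGR2 and the ER stress sensor ERN2.

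The 4 libraries held 11612907 to 16700860 expected counts, and 15.1% to 20.5% of these were from mitochondrially encoded genes. Mouse Spdef had 2 and 0 counts in the libraries labelled as vector, 2 and 0 in the knockout and 2 and 4 in the mT69a control, so its counts check neither the knockout nor the vector label, and each direction below rests on the labels. The labels do not give the sequence that the vector carries. The epithelial markers Krt8, Krt18 and Epcam were present in all 4 libraries, with Epcam between 195 and 328 TPM, a level per transcript length and library size. Col1a1, Cpa1 and Chga, which mark fibroblasts, acinar cells and endocrine cells, were at 0 in all 4. The summed TPM of tuft cell markers was 6.31 and 5.82 with the vector against 30.6 and 19.3 in the knockout. Of the 14 tuft markers, 3 were at 0 in all 4 libraries and 5 were tested. Among these 5, fold changes were above 0 in 2 and below 0 in 3, and Ptgs1 alone passed the test of vector against knockout. For immune cell markers the sum was 14.4 and 9.23 against 27.3 and 15.1, with 13 of 23 at 0, and 0 of 3 tested passed. Lars2 and AY036118, loci known to take reads from ribosomal RNA-like sequence, together held 11.9% and 14.8% of the counts with the vector and 6.26% and 4.85% in the knockout. Without these loci, 616 genes passed the test in place of 615.

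Of 14473 genes tested, 615 (4.25%) differed between vector and knockout at an adjusted p under 0.05 (edgeR's quasi-likelihood test, Benjamini-Hochberg adjustment). Of these, 372 (2.57% of all genes) were higher and 243 (1.68%) lower with the vector, and 252 and 162 of them differed by more than 2-fold. The median log2 fold change of all genes was -0.01. In all 615 the levels of the vector and knockout libraries did not overlap, which held for 50% of all genes. Leaving out each of the 4 libraries in turn left between 215 genes (without vector replicate 1) and 282 (without vector replicate 2), with 276 without knockout replicate 1 and 269 without knockout replicate 2, and a block for the replicate number gave 1533. In none of these settings did a gene called in both change its direction.

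**Figure D1:**
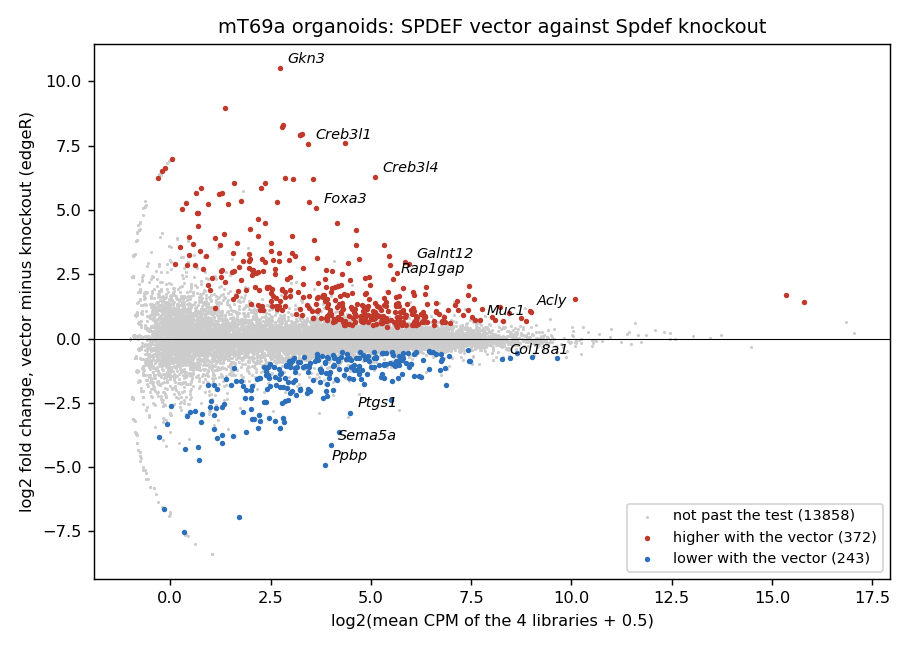
Each point is 1 of the 14473 genes, with its mean level in the 4 libraries as log2(CPM + 0.5), CPM being counts scaled to library size, on the x axis and its log2 fold change, vector minus knockout, on the y axis. Red points (372) were higher and blue points (243) lower with the vector at an adjusted p under 0.05, and fitted values far from 0 at low levels include 34 genes with 3 or fewer counts in a group.

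Creb3l4, Creb3l1 and Foxa3, transcription factors known from secretory cells, were higher with the vector. Creb3l4, an ER-membrane-bound transcription factor of the CREB3 family, stood at 65.9 and 68.6 CPM (counts scaled to effective library size) with the vector, 0.914 and 0.783 in the knockout and 0.813 and 0.808 in the control. Both vector libraries were far above the other 4, and knockout and control levels were alike. The log2 fold change over the knockout was 6.28 ± 0.20 (SE, n = 2 and 2 libraries, adjusted p = 1.96e-07), the smallest adjusted p of the genes named here. Creb3l1, also known as OASIS, is another CREB3 factor, which is cleaved in the Golgi and induces genes of the secretory pathway. It had 23.1 and 17.7 CPM with the vector, 0.108 and 0.087 in the knockout and 0.875 and 1.08 in the control. With 3 counts in all in the knockout, the ratio was 210.4-fold (95% exact interval for counting error 71.7 to 1023). The groups did not overlap, and the control lay between them. Creb3, Creb3l2 and Creb3l3, the other 3 measured members of the family, did not pass the test (log2 fold changes 0.45, 0.21 and -0.80).

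Foxa3, a forkhead factor of goblet and endoderm-derived secretory cells, had 24.3 and 22.2 CPM with the vector and 0.806 and 0.522 in the knockout, with 5.25 and 5.72 in the control. Its log2 fold change was 5.06 ± 0.28 (SE, adjusted p = 1.14e-05), and the vector libraries were above both other groups. Foxa2, a forkhead factor of the embryonic endoderm, went the other way: it had 0.653 and 0.180 CPM with the vector, 3.28 and 2.70 in the knockout and 15.4 and 14.3 in the control. The log2 fold change of Foxa2 was -2.71 ± 0.45 (SE, adjusted p = 0.00666), and without knockout replicate 1 the adjusted p was 0.0542. Xbp1, the factor spliced by the ER stress sensors, had 81.4 and 88.6 CPM with the vector against 64.4 and 56.1 and did not pass by edgeR (log2 fold change 0.50 ± 0.16, adjusted p = 0.132). It passed with a replicate block (0.49, adjusted p = 0.0323) and in a fit of the 4 compared libraries alone (adjusted p = 0.0382).

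Promoter windows are shown for genes among the largest rises, since the vector is labelled with a DNA-binding factor. Of the 15 largest rises, 10 have an entry in the RefSeq promoter table (build GRCm38.p6), and the 250 bases before the listed start were searched on both strands for GGAT, a core often given for SPDEF binding, and for a longer form of it, CCGGAT. The core, which lies within the longer form, was found in 8 of the 10 windows and in 74.1% of all 32851 windows of the table, and the longer form in 0 of the 10 and in 4.94% of all. Both motifs were chosen with these genes in view, and a match is a description, not a binding site. The 10 windows held 0 to 4 matches to the core each, and the median over all windows was 1. Of the 10, the Spats2l window lies 71409 bases from the gene start of the GENCODE annotation, that of Zfp467 735 bases, and those of St8sia4 and Aspg 23 and 4 bases. The 6 windows printed are those that end at the base before the annotated gene start, written 5′ to 3′ on the gene's strand, with matches to the core on either strand in capitals. They are Adamtsl3 (chr7:82335444-82335693, plus strand), Atp6v0a4 (chr6:38124587-38124836, minus strand), Creb3l4 (chr3:90243513-90243762, minus strand), Gkn3 (chr6:87388936-87389185, minus strand), Irf8 (chr8:120736108-120736357, plus strand) and Psors1c2 (chr17:35532951-35533200, plus strand). Adamtsl3 has no match.
Adamtsl3: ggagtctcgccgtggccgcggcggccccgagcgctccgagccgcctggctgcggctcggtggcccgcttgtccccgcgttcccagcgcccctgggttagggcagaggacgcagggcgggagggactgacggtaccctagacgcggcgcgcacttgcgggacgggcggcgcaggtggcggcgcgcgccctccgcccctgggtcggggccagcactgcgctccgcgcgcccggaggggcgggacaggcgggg
Atp6v0a4: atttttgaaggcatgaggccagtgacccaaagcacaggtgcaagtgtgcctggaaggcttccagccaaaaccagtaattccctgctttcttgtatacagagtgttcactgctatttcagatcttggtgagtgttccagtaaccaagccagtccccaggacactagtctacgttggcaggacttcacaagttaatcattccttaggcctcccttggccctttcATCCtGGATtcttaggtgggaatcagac
Creb3l4: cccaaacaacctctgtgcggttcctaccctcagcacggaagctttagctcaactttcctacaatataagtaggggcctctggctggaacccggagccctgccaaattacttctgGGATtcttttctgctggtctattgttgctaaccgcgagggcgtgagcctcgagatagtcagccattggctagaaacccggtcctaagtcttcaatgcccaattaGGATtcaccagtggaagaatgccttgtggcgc
Gkn3: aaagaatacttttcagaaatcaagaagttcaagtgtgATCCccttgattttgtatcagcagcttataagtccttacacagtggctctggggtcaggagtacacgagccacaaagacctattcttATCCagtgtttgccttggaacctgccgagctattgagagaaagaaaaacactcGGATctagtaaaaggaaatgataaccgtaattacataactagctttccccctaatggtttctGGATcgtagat
Irf8: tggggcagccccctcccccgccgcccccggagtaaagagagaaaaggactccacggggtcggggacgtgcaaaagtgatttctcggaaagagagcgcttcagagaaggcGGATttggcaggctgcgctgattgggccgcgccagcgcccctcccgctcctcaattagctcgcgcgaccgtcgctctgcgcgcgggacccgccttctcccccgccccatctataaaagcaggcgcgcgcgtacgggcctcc
Psors1c2: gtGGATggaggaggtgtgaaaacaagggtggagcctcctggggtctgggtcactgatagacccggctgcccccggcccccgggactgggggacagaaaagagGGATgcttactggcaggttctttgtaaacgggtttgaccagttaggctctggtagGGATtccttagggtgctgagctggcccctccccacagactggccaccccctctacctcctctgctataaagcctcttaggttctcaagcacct

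Among 27 measured genes of the goblet and mucous cell programme, a list of 40 that includes both CREB3 factors and Foxa3, 9 were higher and 2 lower with the vector, against 2.57% and 1.68% of all genes. The median log2 fold change of the list was 0.93 (0.90 with genes near 0 counts at their bounds). This list and the others below were chosen with earlier results of these data known. Their shares thus describe the members and are not an independent test of a programme. The 9 were Creb3l4, Creb3l1, Foxa3, Rap1gap, Galnt12, Ern2, Gcnt3, Slc12a8 and Agr2, and the 2 were Foxa2 and Clca1. Leaving out any 1 of the 4 libraries left 7 of the 9, all but Slc12a8 (adjusted p between 0.0881 and 0.15) and Agr2.

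Ern2, the IRE1-type stress sensor of mucous epithelium, had 15.7 and 20.03 CPM with the vector, 0.108 and 0 in the knockout and 2.63 and 4.18 in the control. With 2 counts in the knockout, the ratio was 262-fold (95% exact interval 72.2 to 2172, adjusted p = 0.000357). Agr2, the disulfide isomerase that mucins need to fold, had 5.64 and 7.58 CPM against 0.323 and 0.348, with 6.13 and 19.5 in the control. The vector libraries of Agr2 were thus above the knockout and within or below the range of the control. Its log2 fold change was 4.26 ± 0.95 (SE, adjusted p = 0.0437), and without any 1 of the 4 libraries the adjusted p lay between 0.13 and 0.247. Its relative Agr3 was at 0 in all 6 mT69a libraries.

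Rap1gap, which switches off the small GTPase RAP1, rose from 17.0 and 14.0 CPM to 83.5 and 71.9, near the 92.8 and 96.4 of the control. The log2 fold change was 2.32 ± 0.15 (SE, adjusted p = 4.57e-05). Gkn3, a gastrokine of the stomach lining, had 10.6 and 14.0 CPM with the vector and 0 counts in both knockout libraries, at least 119.6-fold higher when the knockout is set at a floor of 3 counts over its 2 libraries (adjusted p = 0.000769). In the control Gkn3 had 0 and 0.135 CPM. The trefoil factors, small peptides secreted with mucins, did not pass by edgeR: Tff1 had 2.02 and 1.17 CPM against 9.19 and 3.39 (adjusted p = 0.262), and Tff2 had 0 counts in both vector libraries and 0.376 and 0.348 CPM in the knockout (adjusted p = 0.0765). Tff1 was called lower by DESeq2 (log2 fold change -1.97, adjusted p = 0.0314) and Tff2 on log2(TPM + 0.1) by limma (adjusted p = 0.00253), and both with no filter on low counts.

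Of 9 measured mucins, 1 was higher (11.1%) and 0 were lower by edgeR, against 2.57% and 1.68% of all genes. DESeq2 called 2 higher and 1 lower, and a replicate block 1 higher and 2 lower. Muc1, a membrane mucin of ducts, had 277 and 245 CPM with the vector, 169 and 149 in the knockout and 138 and 143 in the control (log2 fold change 0.72 ± 0.13, adjusted p = 0.012). The 2 vector libraries were above the other 4. On log2(TPM + 0.1) by limma Muc1 did not pass (log2 fold change 0.53, adjusted p = 0.5707). Nor did it on log2(TPM + 1) by limma (0.52, adjusted p = 0.5775), and neither TPM scale called a mucin higher. Without knockout replicate 1, knockout replicate 2 or vector replicate 1, Muc1 did not pass (adjusted p up to 0.145). The gel-forming mucin Muc5ac had 1.01 and 1.17 CPM with the vector, 1.51 and 1.65 in the knockout and 4.63 and 10.2 in the control (adjusted p = 0.867 against the knockout). Muc4 had 1.42 and 3.88 CPM against 8.98 and 12.7 (adjusted p = 0.1 by edgeR), and it was called lower by DESeq2 (adjusted p = 0.0157), with the block (adjusted p = 0.00286) and on log2(TPM + 0.1) (adjusted p = 0.0208). Muc13 had 13.9 and 10.01 against 5.59 and 4.96 (adjusted p = 0.0854 by edgeR), and it was called higher by DESeq2 (adjusted p = 0.0148) and in fits of the 4 compared or the 6 mT69a libraries alone (adjusted p = 0.0124 and 0.0106). Both also passed with no filter on low counts. For these mucins the vector and knockout libraries did not overlap, which held for 50% of all genes. Exons of Muc4 and Muc20 overlap on opposite strands, and reads there may be shared.

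**Figure D2:**
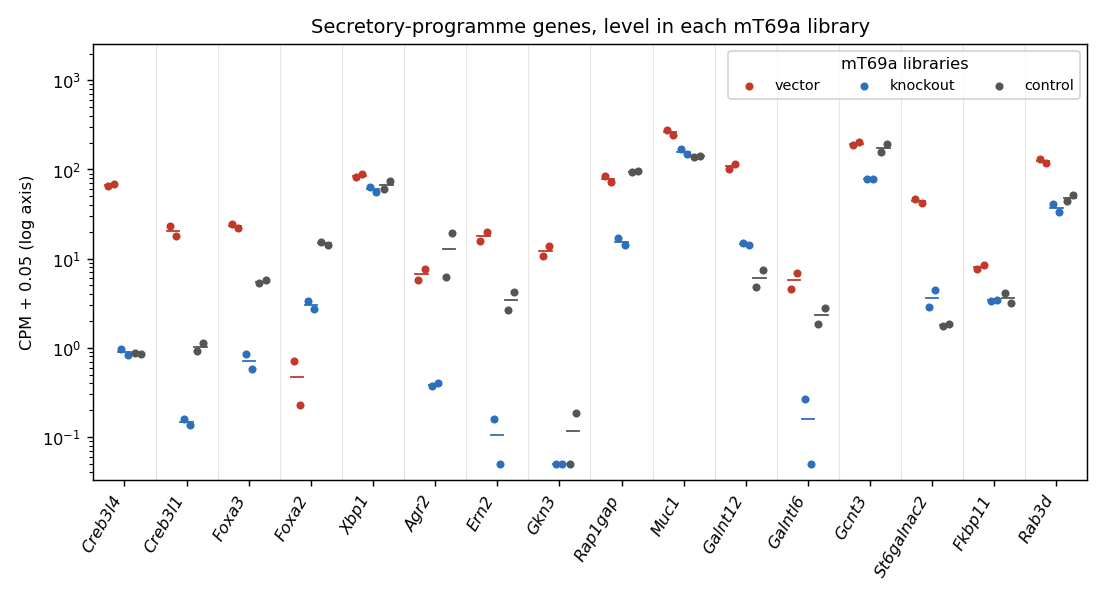
Levels of 16 secretory-programme genes in each mT69a library, as CPM + 0.05 on a log axis, with points for single libraries and bars for the mean of 2. Creb3l4 and Creb3l1 are above both other groups in the 2 vector libraries (for Creb3l4 65.9 and 68.6 CPM against less than 1), while Rap1gap and Gcnt3 reach about the level of the control and Foxa2 is lowest with the vector.

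A list of mucin O-glycosylation genes had 43 measured entries, not all of them enzymes that build the O-linked sugar chains of mucins. Of these entries, 11 were higher (25.6%) and 2 lower (4.65%), against 2.57% and 1.68% of all genes. The list's median log2 fold change was 0.52. The 11 entries are 10 genes, since St6galnac2 has 2 identifiers that overlap on the same strand. Leaving out 1 library left 6 or 7 higher and 0 or 1 lower, the TPM scales 6 higher, and a replicate block gave 17 higher and 2 lower.

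Galnt12, a transferase that attaches the first sugar, had 101.7 and 117 CPM with the vector, 14.9 and 14.0 in the knockout and 4.75 and 7.41 in the control. The vector libraries were above the control as well, and the log2 fold change over the knockout was 2.91 ± 0.21 (SE, adjusted p = 7.35e-05). Its relative Galntl6 had 4.51 and 6.86 CPM against 0.215 and 0, a ratio of 40.9-fold (95% exact interval 15.7 to 152), and its exons overlap BC030500 on the opposite strand. Galnt6 and Galnt18 had 0 counts in the knockout, with 0.771 and 0.451 CPM and 1.19 and 0.902 CPM with the vector.

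Gcnt3, which branches mucin O-glycans, had 188 and 202 CPM with the vector, 79.0 and 78.7 in the knockout and 157 and 195 in the control (log2 fold change 1.31 ± 0.14, adjusted p = 0.000617). It was at about the level of the control. The sialyltransferase St6galnac2 had 46.8 and 42.4 CPM at its larger entry against 2.85 and 4.35, with 1.69 and 1.82 in the control (log2 fold change 3.66 ± 0.44, adjusted p = 0.00169). St3gal4, B4galnt1, Slc35a2 and B3gnt2 rose by smaller amounts, between 0.63 for B3gnt2 and 1.13 for B4galnt1 on the log2 scale. The members that fell were B3gnt7, which extends sulphated chains and had 0.356 and 0.451 CPM against 2.69 and 2.44, and the sulfotransferase Chst4. B3gnt7 did not pass without vector replicate 1 (adjusted p = 0.0911), and Chst4 lost its call without any 1 of the 4 libraries (adjusted p between 0.0802 and 0.244).

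Across the machinery of the ER and Golgi, few genes passed. Of 54 measured genes of translocation and N-glycosylation, 2 were higher (Mogs, the first glucosidase of N-glycan trimming, and Sec11c, of the signal peptidase) and 0 lower, with 46 of 54 fold changes above 0 and a median of 0.18. Of 35 chaperones and disulfide isomerases, 4 were higher and 0 lower: Txndc12, Txndc11, Fkbp11 and Agr2. Of 28 genes of ER-associated degradation, 3 were higher and 0 lower: the mannosidases Edem3 and Edem1 and the ubiquitin ligase Syvn1. Of 81 genes of ER-Golgi transport, 4 were higher (Ergic1, Gorasp1, Kdelr3 and Sec16a) and 1, Sec16b, lower. The shares higher were 3.70%, 11.4%, 10.7% and 4.94% in the 4 lists, against 2.57% of all genes, so that the first and the last lie near the share of all genes. These counts depended on the model: a replicate block gave 8, 10, 4 and 14 higher and 0, 0, 0 and 2 lower in the 4 lists, while leaving out 1 library left 0, 1, 1 and 1 to 2 higher. Txndc12, Edem3, Ergic1 and Sec16b passed without each library, but Txndc12, Edem3 and Ergic1 did not pass on log2(TPM + 0.1) (adjusted p = 0.117, 0.296 and 0.338) or log2(TPM + 1). Mogs, Sec11c, Fkbp11, Txndc11, Edem1, Syvn1, Kdelr3 and Sec16a lost their calls without any 1 of the 4 libraries, Agr2 too, and Gorasp1 without knockout replicate 2 or vector replicate 1.

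Txndc12, a thioredoxin-like protein of the ER, had 31.0 and 32.5 CPM with the vector, 15.1 and 15.6 in the knockout and 15.6 and 18.5 in the control (log2 fold change 1.05 ± 0.16, adjusted p = 0.00366). Edem3 had 99.5 and 108 CPM against 57.1 and 59.4, and Ergic1, a cargo cycling protein between ER and Golgi, 218 and 192.5 against 117 and 98.7. For these genes both vector libraries were above the knockout and the control. The central chaperone Hspa5 had 886 and 994 CPM with the vector and 1083 and 911 in the knockout, with overlapping libraries (log2 fold change -0.09 ± 0.19, adjusted p = 0.914). Dnajb9, another marker of the unfolded protein response, had 16.02 and 18.0 CPM against 16.3 and 12.4 (adjusted p = 0.677). Exons of Ergic1, Gorasp1, Kdelr3 and Syvn1 overlap Dusp1, Wdr48, Ddx17 and Mrpl49 on the opposite strand, and how strand was set in counting is not given in the sources used here.

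None of 37 measured targets of the PERK-ATF4 stress pathway passed in either direction by edgeR (2 at an unadjusted p under 0.05, 0 by DESeq2, and 2 higher and 1 lower with a replicate block). Of 27 genes of vesicle exocytosis, 2 were higher and 1 lower, shares of 7.41% and 3.70% against 2.57% and 1.68% of all genes. Under the block 4 were higher and 2 lower. Rab3d, a GTPase of secretory granules, had 132 and 117 CPM with the vector, 41.2 and 33.0 in the knockout and 43.8 and 51.1 in the control. Its log2 fold change was 1.75 ± 0.15 (SE, adjusted p = 0.000198), and the vector libraries were above all others. Rab27b, which docks secretory vesicles, had 67.9 and 78.8 CPM against 44.8 and 38.3 and passed only with all 4 libraries (adjusted p = 0.0189, and up to 0.172 without 1).

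**Figure D3:**
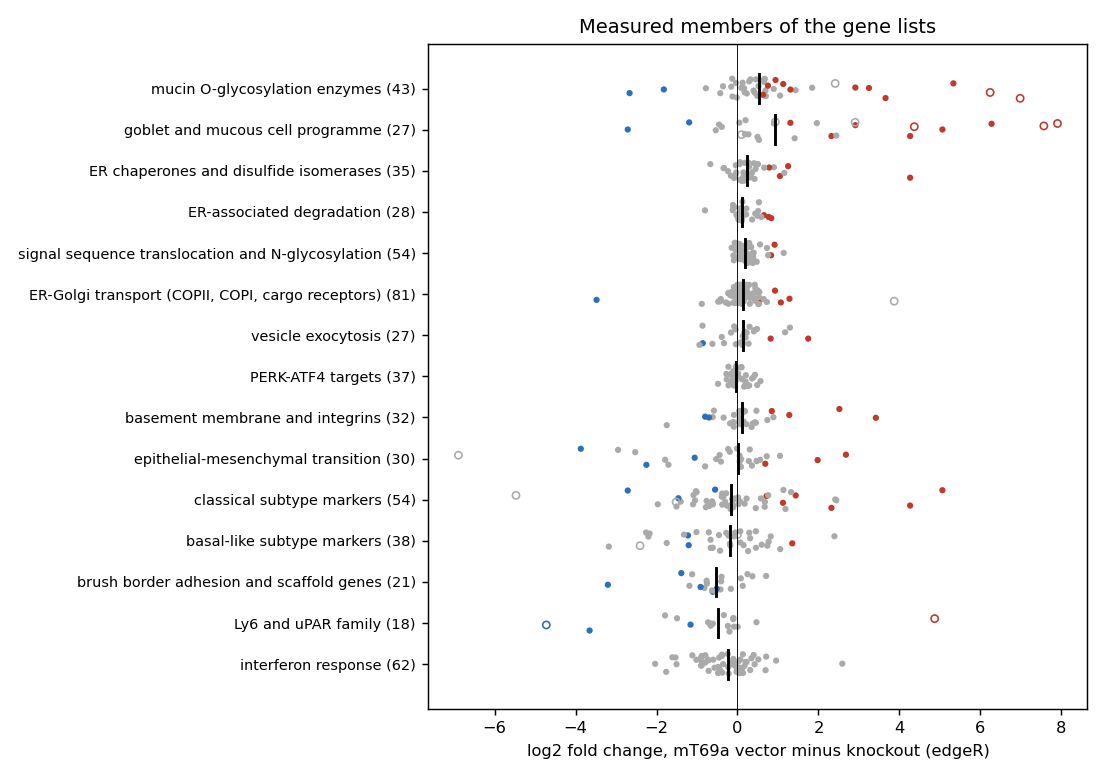
Log2 fold change, vector minus knockout, of each measured member of 15 gene lists, with the number measured in brackets. Red and blue points passed the test, grey did not, open points have 3 or fewer counts in a group, and the black bar is the list's median, which is 0.93 for the goblet and mucous programme and 0.52 for O-glycosylation.

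Besides the factors above and Gkn3, the 15 largest rises included Adamtsl3, Zfp467, Psors1c2, Ern2, Spats2l, St8sia4, Nrg2, Nectin1, Irf8, Atp6v0a4 and Aspg. Of the 15, all but Adamtsl3 and Atp6v0a4 passed without each of the 4 libraries. Spats2l, an RNA-binding stress granule protein, had 42.7 and 37.2 CPM with the vector against 0.269 and 0.087, and Psors1c2, a gene of the keratinocyte-associated psoriasis locus, 20.6 and 16.1 against 0.0538 and 0.087. Zfp467, a zinc-finger transcription factor, had 12.8 and 13.3 CPM with the vector, 0.0538 and 0 in the knockout and 0 in both control libraries. In Spats2l, Psors1c2 and Zfp467 the vector libraries were far above the knockout, which held few counts.

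Of the signalling and adhesion genes in this group, Nrg2, a neuregulin ligand of ErbB receptors, had 15.2 and 15.9 CPM against 0.161 and 0.261 (log2 fold change 6.21 ± 0.60, adjusted p = 0.000357). The adhesion receptor Nectin1 had 21.7 and 22.8 CPM against 0.376 and 0.174, with 1.13 and 0.539 in the control (log2 fold change 6.19 ± 0.34, adjusted p = 1.14e-05). Irf8, an interferon regulatory factor best known in myeloid cells, had 10.3 and 7.94 CPM against 0.215 and 0, while Ptprc, the pan-leukocyte marker, had 3 counts or fewer in each library. In these 3 genes the vector libraries were far above both knockout libraries. The polysialyltransferase St8sia4 had 10.5 and 16.4 CPM against 0.108 and 0.261, and the proton pump subunit Atp6v0a4 had 5.52 and 4.33 against 0.0538 and 0.087. Atp6v0a4 did not pass without knockout replicate 1 (adjusted p = 0.0864) or knockout replicate 2, and Adamtsl3, at 3.09 and 5.23 CPM against 0 counts, not without knockout replicate 1 or vector replicate 2 (adjusted p = 0.0623).

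The 15 largest falls were Gsdmc2, Ppbp, Lypd2, Efs, Sema5a, Ifne, Fbln1, Adcy1, Efcab3, Psca, Prl2c3, Otop2, Golga7b, Sec16b and Ptpn22. Ppbp, a chemokine that attracts neutrophils, had 1.07 and 0.631 CPM with the vector, 31.5 and 22.4 in the knockout and 1.0002 and 0.606 in the control. The knockout was high, and vector and control overlapped. The log2 fold change over the knockout was -4.93 ± 0.56 (SE, adjusted p = 0.000989). Sema5a, a guidance semaphorin, had 1.66 and 1.62 CPM with the vector, 27.3 and 31.2 in the knockout and 0.125 and 0.404 in the control (log2 fold change -4.15 ± 0.32, adjusted p = 0.000644). Ptpn22, a tyrosine phosphatase of lymphocytes, had 1.48 and 0.992 CPM against 14.7 and 9.57, with 1.94 and 1.28 in the control.

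Fbln1, a fibulin of the extracellular matrix, and Sec16b, a scaffold of ER exit sites, showed another order. Fbln1 had 0.178 and 0.271 CPM with the vector, 4.03 and 2.44 in the knockout and 3.44 and 4.31 in the control (log2 fold change -3.87 ± 0.45, adjusted p = 0.000979). Sec16b had 0.950 and 1.08 CPM against 11.9 and 10.8, with 9.31 and 8.55 in the control (log2 fold change -3.48 ± 0.32, adjusted p = 0.000278). In both genes knockout and control were alike and the vector libraries were low. Psca, a Ly6-family surface protein of gastric pit cells, had 0.415 and 0.541 CPM with the vector, 7.47 and 4.35 in the knockout and 2.81 and 2.76 in the control (log2 fold change -3.65 ± 0.46, adjusted p = 0.0016). Gsdmc2 and Prl2c3 have near-identical relatives between which reads could be split, so their values are uncertain, and Efcab3 overlaps Gm11639 on the same strand. Without vector replicate 1, Gsdmc2 (adjusted p = 0.0514), Lypd2 (0.169), Efs (0.0642), Adcy1 (0.125), Efcab3 (0.103), Otop2 (0.0951) and Golga7b (0.0619) did not pass, and the other 8 passed without each library. Adcy1 and Golga7b also lost their calls without knockout replicate 1, Lypd2 without knockout replicate 2, and Adcy1 and Otop2 without vector replicate 2.

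**Figure D4:**
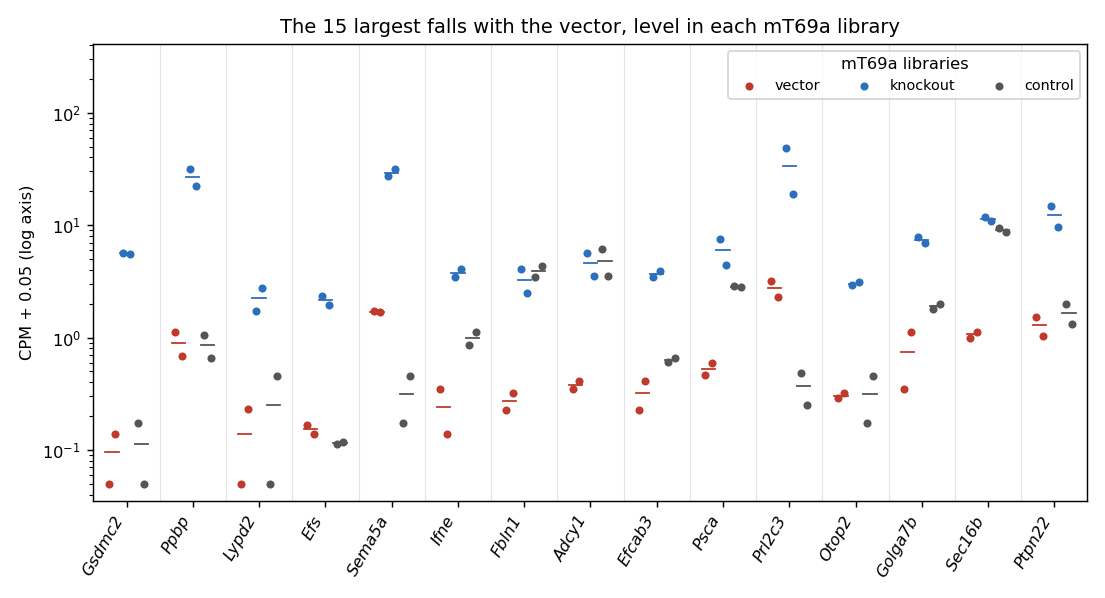
The 15 largest falls, ordered by log2 fold change, as CPM + 0.05 on a log axis in each vector, knockout and control library of mT69a, with bars for the mean of 2. Ppbp, Otop2 and Ptpn22 are high in the knockout alone, whereas Fbln1, Adcy1 and Sec16b are at similar levels in knockout and control (for Sec16b 11.9 and 10.8 against 9.31 and 8.55 CPM).

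Markers of tumour subtypes were called in both directions. Of 54 measured markers of the classical, glandular subtype, 6 were higher (Foxa3, Rap1gap, Ttc39a, Muc1, Cldn2 and Agr2) and 3 lower (Mall, Foxa2 and Tspan3), shares of 11.1% and 5.56% against 2.57% and 1.68% of all genes, with a median of -0.15. Leaving out 1 library left 3 to 4 higher and 1 to 2 lower, and the block gave 10 and 6. The classical marker Gata6, an endoderm factor, had 0.178 and 0.090 CPM with the vector, 0.484 and 0.261 in the knockout and 3.31 and 3.03 in the control (adjusted p = 0.479 against the knockout). Gata5 likewise did not pass (adjusted p = 0.811), and its 1.96 and 0.992 CPM with the vector were far under the 22.7 and 19.9 of the control. Of 38 basal-like markers, 1 was higher (Serpinb5) and 2 were lower (Ivl and Il1rn), shares of 2.63% and 5.26% against 2.57% and 1.68% of all genes. The block gave 4 and 8, and leaving out 1 library 0 or 1 higher and 1 or 2 lower. Serpinb5 lost its call without any 1 of the 4 libraries (adjusted p between 0.0621 and 0.169) and on both TPM scales, and Il1rn without knockout replicate 1, vector replicate 1 or vector replicate 2 (adjusted p up to 0.197) and on both TPM scales. Ivl, the cornified envelope protein involucrin, had 12.2 and 16.3 CPM with the vector, 34.6 and 30.9 in the knockout and 18.8 and 17.8 in the control (log2 fold change -1.21 ± 0.17, adjusted p = 0.00257).

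Of 21 measured genes of the intestinal-type brush border, 0 were higher and 5 lower (Myo7b, Cdhr2, Vil1, Pls1 and Cobl), 23.8% against the 1.68% of all genes that were lower, with a median of -0.54. The block gave 2 higher and 8 lower, and 1, 2, 0 and 1 were lower without knockout replicates 1 and 2 and vector replicates 1 and 2. Cdhr2, a protocadherin that links microvilli, had 1.42 and 0.722 CPM with the vector, 14.4 and 6.09 in the knockout and 97.8 and 112.5 in the control. Myo7b, the motor of that complex, had 15.6 and 17.1 against 50.2 and 35.1, with 80.8 and 86.5 in the control. Both stood in the order control, knockout, vector from high to low, with no overlap between the groups. Of 18 genes of the Ly6 and uPAR family, 1 was higher (Ly6f, 1 of several near-identical copies) and 3 lower (Psca, Lypd2 and Slurp1), shares of 5.56% and 16.7% against 2.57% and 1.68% of all genes. Slurp1 lost its call without any 1 of the 4 libraries (adjusted p between 0.126 and 0.287), by DESeq2 (adjusted p = 0.0604), on both TPM scales and in fits of the 4 or 6 libraries alone, and Ly6f without vector replicate 1 (adjusted p = 0.0601). Of 30 genes of duct fluid and ion transport, 1 was higher (Slc12a8) and 4 lower, shares of 3.33% and 13.3% against 2.57% and 1.68% of all genes. Exons of Kcnq1, which was lower, overlap Kcnq1ot1 on the opposite strand (797 and 1046 counts with the vector, 702 and 821 in the knockout). Reads there may be shared. The 4 lower genes were Kcnq1, the chloride channel Ano1, the water channel Aqp3 and Clca1. None of these 4 passed without vector replicate 1.

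Of 30 genes of epithelial-mesenchymal transition, 3 were higher (Itga5 and Epcam among them) and 3 lower (Fbln2, Fbln1 and Timp3), 10% each against 2.57% and 1.68% of all genes, with a median of 0.02 and 4 and 7 under the block. Leaving out knockout replicate 1, knockout replicate 2, vector replicate 1 or vector replicate 2 left 1, 0, 0 and 0 higher and 2, 2, 3 and 2 lower. Itga5 (adjusted p between 0.0865 and 0.2) and Epcam (0.148 and 0.235), the epithelial member of the list, lost their calls without any 1 of the 4 libraries and on both TPM scales, and Timp3 without knockout replicate 1, knockout replicate 2 or vector replicate 2 (adjusted p up to 0.261). Fbln2, a fibulin, had 5.16 and 4.96 CPM with the vector, 27.0 and 21.1 in the knockout and 3.63 and 2.90 in the control (log2 fold change -2.25 ± 0.25, adjusted p = 0.000729). Of 32 genes of basement membrane and integrins, 4 were higher (Itga1, Itgb5, Itga7 and Tinagl1) and 2 lower (Col18a1 and Itgb6). These are shares of 12.5% and 6.25% against 2.57% and 1.68% of all genes. The block gave 7 and 2, and the calls of this list did not hold without knockout replicate 2. Itga1, a collagen receptor chain, had 9.14 and 10.01 CPM with the vector against 2.04 and 1.22 (log2 fold change 2.52 ± 0.39, adjusted p = 0.00492).

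Several single members of other lists stood out. Nr4a1, an immediate early nuclear receptor, had 37.5 and 27.3 CPM with the vector, 5.86 and 5.39 in the knockout and 3.38 and 2.56 in the control. Its log2 fold change over the knockout was 2.52 ± 0.23 (edgeR, adjusted p = 0.00023). It was the 1 called gene of 27 immediate early and heat shock genes, 3.70% against the 2.57% of all genes that were higher. Acly, which makes cytosolic acetyl-CoA for lipid synthesis, had 690 and 668 CPM against 337 and 305 (log2 fold change 1.08 ± 0.12, adjusted p = 0.000626). It did not pass on log2(TPM + 0.1) (adjusted p = 0.0847) or log2(TPM + 1) (adjusted p = 0.0818). In its list of 44 lipid synthesis genes 1 was higher and 1, Fads3, lower, which is 2.27% each against 2.57% and 1.68% of all genes. Fads3 lost its call without any 1 of the 4 libraries and on both TPM scales. Ptgs1, the cyclooxygenase that also marks tuft cells, had 5.10 and 5.32 CPM with the vector, 40.8 and 36.4 in the knockout and 12.8 and 8.15 in the control (log2 fold change -2.89 ± 0.22, adjusted p = 8.57e-05). Of 5 measured tuft cell markers it was the 1 called gene, 20% against the 1.68% of all genes that were lower. Spred3, a feedback inhibitor of MAPK signalling, rose from 1.18 and 0.870 CPM to 7.60 and 8.93, and Wnt4, a secreted WNT ligand, fell from 34.3 and 30.0 CPM to 12.8 and 9.47.

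None of 62 interferon response genes, 22 genes of MHC class I presentation and 24 p53 targets passed by edgeR, with 4, 3 and 1 at an unadjusted p under 0.05 and 0, 0 and 0 by DESeq2. The interferon list depended on 1 library in each direction: 13 of its genes were higher without knockout replicate 1 and 8 lower without knockout replicate 2, and a block gave 0 higher and 2 lower. Of 62 genes of cell cycle and DNA replication, 1 was higher (Cdk2) and 1 lower (Rrm2), 1.61% each against 2.57% and 1.68% of all genes. Both lost the call without any 1 of the 4 libraries.

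A comparison with the control uses the same vector libraries as the one above. In it 1791 genes (12.4%) differed, 1015 (7.01%) higher and 776 (5.36%) lower in the vector libraries. These groups differ in the vector, in the gene knocked out (Spdef or Rosa26) and in the cells, clone KO1 or the Rosa26 control. Which of these a difference belongs to was not tested. Creb3l4 (6.36), Galnt12 (4.17) and Creb3l1 (4.38) were above the control on the log2 scale with adjusted p of 1.74e-07, 3.53e-06 and 9.49e-06. Foxa3 was above it by 2.08 (adjusted p = 0.000181). For Rap1gap (-0.28, adjusted p = 0.269), Gcnt3 (0.15, adjusted p = 0.596) and Agr2 (-0.96, adjusted p = 0.393) no difference from the control passed. Foxa2 (-5.01), Cdhr2 (-6.54), Gata6 (-4.41) and Gata5 (-3.80) were below the control with adjusted p between 4.97e-05 and 0.00583. The knockout without the vector was also below the control in each of them, with log2 fold changes of -2.30, -3.34, -3.01 and -3.52. The labelled vector libraries thus held genes above the control, genes below it and genes with no difference that passed. With 2 libraries a group, a difference that did not pass does not show equal levels.

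The same comparison in the other line, mT6, rests on 4 libraries of its own. It called 389 genes (2.69%), 224 (1.55%) higher and 165 (1.14%) lower. Of these, 259 were also called in mT69a, 42.1% of the calls of mT69a and 66.6% of those of mT6. Of the shared calls, 167 were higher and 91 lower in both lines, and 1, the kinase gene Ick, was higher in mT69a (log2 fold change 0.57) and lower in mT6 (-0.64). That difference did not pass (adjusted p = 0.11). Across the 14473 genes, which are not independent, the effects in mT69a and mT6 correlated with a Pearson r of 0.431 and a Spearman rho of 0.411. Creb3l4 (6.28 in mT69a and 5.62 in mT6), Foxa3 (5.06 and 3.14) and Creb3l1 passed in both lines. Gcnt3 was 1.31 in mT69a and -0.21 in mT6 (adjusted p = 0.657), and Fbln2 -2.25 and 0.48 (adjusted p = 0.76). The difference between lines did not pass for either gene (adjusted p = 0.0556 and 0.175).

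A direct test of the difference between lines called 2 genes (0.0138%), Nectin1 and Gm27177, by edgeR, with 712 at an unadjusted p under 0.05 and 43 by DESeq2, and 55 with a replicate block. In mT6 Nectin1 had 66.0 and 61.1 CPM with the vector against 21.6 and 21.2 in the knockout. The mT6 knockout thus had Nectin1 at about the level that the vector reached in mT69a, where the knockout was near 0. Without knockout replicate 1, knockout replicate 2 or vector replicate 2 of mT69a, 0 genes passed this test, and without vector replicate 1 the count was 1.

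**Figure D5:**
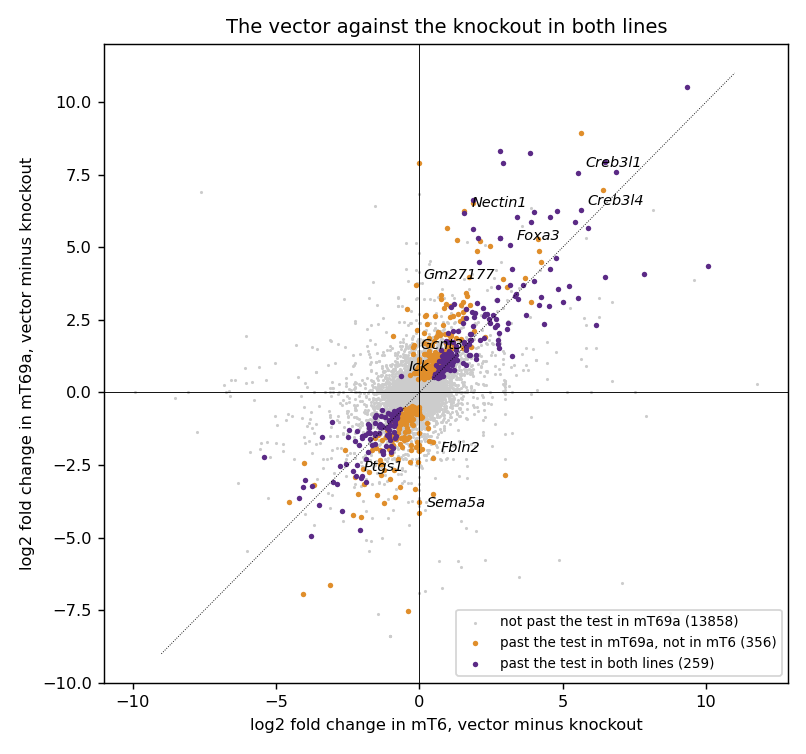
Log2 fold change, vector minus knockout, of each gene in mT6 (x axis) and mT69a (y axis), with the line of equal change dotted. Purple points (259) passed in both lines and orange points (356) in mT69a but not in mT6; Nectin1 and Gm27177 lie above the dotted line and passed the test of the difference.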

How the data were processed

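The authors deposited 1 gene table per library, made with STAR 2.5.2b and RSEM 1.3.0 on GRCm38.p6, per the submitters' processing notes, with expected counts (RSEM's estimated counts) and TPM. The libraries came from a stranded total RNA kit, per the labels' protocols, and the strand setting of the counting is not given in the sources used here. Of 53715 gene identifiers, 53620 were matched to symbols and positions of the GENCODE M21 annotation.

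Expected counts of all 12 libraries were rounded, filtered with edgeR's filterByExpr by group and scaled by TMM (factors 0.839 to 1.2). Then 14473 genes were fitted by edgeR 4.0.16 (R 4.3.3) with 6 group means (6 residual degrees of freedom, robust quasi-likelihood test, Benjamini-Hochberg adjustment, threshold 0.05). CPM are on TMM-scaled library sizes, and a standard error is the log2 fold change divided by the root of F. Where a group held 3 counts or fewer, a ratio of summed counts with an exact 95% interval, or a bound at a floor of 3 counts, replaces the fitted value; these cover counting error only. DESeq2 1.42.0 on the counts and limma 3.58.1 on log2(TPM + 1) and log2(TPM + 0.1) were alternatives, as were other scalings and filters, fewer libraries and a block for the replicate number. The fit was tried on simulated counts drawn without a replicate effect, so that trial does not cover the pairing described below.

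Same-numbered libraries deviated together in all 15 pairs of groups (correlation of deviations from group means 0.205 to 0.531, 0.253 for mT69a vector and knockout). The replicate numbers, taken from the titles, thus pair the libraries. The main fit leaves this pairing out, which is a limit of its 615 calls, and the block for the replicate number called 1533. The members and gene lists were chosen with earlier results of these data known. Named genes were those fixed by name, the 15 largest rises and falls among called genes with a mean of at least 1 CPM and no overlap between groups, genes called in the test of the line difference (both leaving out predicted genes and pseudogenes), and up to 4 called members of each list with the smallest adjusted p, or all where a list had 5 or fewer. Gm27177, Ick, the O-glycosylation genes beyond 4, Lars2 and AY036118 fell outside this rule and were chosen after their values were seen. Isoform tables were not used here, and some items that meet the rule for named genes, and 1 allele, are not reported here.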

Additional observations from a re-analysis of the deposited data

Results flagged for a closer look

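The vector's effect differed between mT69a and mT6 in 2 genes by the test of the difference itself. For the adhesion receptor gene Nectin1 the effect in mT69a exceeded that in mT6 by 4.619 on the log2 scale (edgeR, adjusted p = 0.00824), with 6.19 ± 0.34 in mT69a and 1.57 ± 0.22 in mT6. For Gm27177, a predicted gene, the difference was 3.826 (edgeR, adjusted p = 0.0191), with 4.75 and 5.14 CPM with the vector against 0.323 and 0.435 in the mT69a knockout, and 5.73 and 7.16 against 6.19 and 7.67 in mT6. In the mT69a control, Nectin1 had 1.13 and 0.539 CPM and Gm27177 4.88 and 5.52, so that Nectin1 was low in knockout and control of this line and Gm27177 in the knockout.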

How the results depend on the processing

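The 615 genes called between vector and knockout became 1102 with the 4 libraries alone, 947 with the 6 mT69a libraries, 1175 with no filter, 273 on log2(TPM + 0.1) and 314 on log2(TPM + 1), and 215 to 282 when 1 of the 4 compared libraries was left out (up to 712 over all libraries, without mT6 vector replicate 2). The replicate block gave 1533. The TPM scales moved the median of all genes to -0.183 and -0.134. For mT69a vector against control, 1791 became 871 on log2(TPM + 0.1), 806 on log2(TPM + 1), 3252 with the replicate block and 802 to 1901 without 1 library. For the vector effect in mT69a minus vector effect in mT6, the 2 genes became 43 with DESeq2, 7 on log2(TPM + 1), 196 with no filter, 55 with the replicate block and 0 to 4 without 1 library. The causes were not tested, and the fits that leave some libraries out also rest on fewer libraries. Among named genes that did not pass, the log2 fold changes turned sign when 1 library was left out for Gata5, mT69a vector against knockout (-0.894 to 0.0978), Hspa5, mT69a vector against knockout (-0.21 to 0.0487) and Muc6, mT69a vector against knockout (-0.319 to 1.02, and -0.131 without vector replicate 2). Of 110 named genes past the threshold, 41 stayed past it without each of the 4 libraries. The settings that leave out Lars2 and AY036118, control libraries or mT6 libraries were chosen after seeing the data. With 2 libraries a group, small differences cannot be shown, and genes under about 3 counts a group give bounds only.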
